A study of Mus musculus with 7 samples.

Results

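The genes described here carry out the work of a mature neuron: releasing transmitter from vesicles, receiving it at the synapse, holding the synapse together and firing. They were taken by symbol from a list of 47 genes of synaptic vesicles, transmitter receptors and mature neurons, and 46 of them were measured among the 34592 genes of the count table. Of the 46, 44 passed the filter on low counts (edgeR's default) and entered the test with 17389 genes in all. The exceptions were Gabra6, a GABA receptor subunit of mature cerebellar granule neurons, and Pcp2, a Purkinje cell gene. Gabra6 had 7, 0 and 0 counts in the control tumors and 0, 0, 6 and 18 in the WDR11OE tumors, and Pcp2 had 5, 0 and 0 against 0, 2, 1 and 2.

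RNA sequencing was performed on 7 mouse Group 3 medulloblastomas (G3 MBs), an aggressive subgroup of this childhood cerebellar tumor that is marked by high Myc. All 7 grew from 1 tumorsphere line, # 19568, that is, from 1 original tumor. The line came from granule neuron progenitors of Trp53-/-; Cdkn2c-/- cerebella at postnatal day 7, which had been given Myc and GFP by an MSCV retrovirus (Myc-IRES-GFP). The 4 WDR11OE tumors arose from cells infected with a lentivirus carrying human WDR11 under the EF1 promoter together with copGFP. The 3 controls carried the matching empty vector by the study's methods, although their treatment label reads "none". Infected cells were put unsorted in Matrigel into the cortex of CD1-nu/nu mice, whose age is not given for these transplants, and pieces of tumor were frozen when the mice were moribund. A piece of tumor can hold host brain beside tumor cells, and these bulk samples do not show which cells a read came from. Fewer neurons and less RNA per neuron also cannot be told apart.

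Total counts ran from 32116095 to 87141305 per tumor, so that 1 read was worth between 0.0110 and 0.0308 CPM, the count relative to library size as scaled by the trimmed mean of M values (TMM). The mouse Wdr11 gene stood at 58.3 to 59.3 CPM in the controls and 61.0 to 68.9 CPM in the WDR11OE tumors (adjusted p = 0.091 by edgeR). The transgene is human, so this row is a weak check of the labels. Atoh1, which defines granule neuron progenitors, had no read in any of the 7 tumors, and Barhl1, a gene of the same lineage, had a single read in WDR11OE replicate 1. The sample identifiers of each group come from separate number series, so any difference in handling that goes with them cannot be told apart from WDR11. The labels do not say that tumors of a group came from separate mice, so p-values measure only the spread between these samples.

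As background, a nerve impulse opens calcium channels at the axon ending. Synaptotagmin senses the calcium, and a SNARE complex of Vamp2 on the vesicle with Stx1a and Snap25 on the membrane then fuses vesicle and membrane. Transmitter reaches glutamate or GABA receptors that are anchored across the cleft by scaffold proteins such as Dlg4 and Shank3. These genes are turned on late in neuronal differentiation, and many are held off in other cells by the repressor REST, which binds a DNA site called RE1.

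Since many of these genes are known for RE1 sites, the promoter windows (250 bases before to 50 after the start site, RefSeq, GRCm38.p6) were searched on both strands for the RE1 core, AGCACC and GGACAG set 2 bases apart, overlapping matches allowed. It was found for 16 of 27025 genes (0.0592%) and for 2 of the 32 listed genes that had a window (6.25%). With GGNCAG in place of GGACAG the counts were 32 genes (0.118%) and 3 listed genes (9.38%). With AGNNCC in place of AGCACC, and GGACAG kept, they were 79 genes (0.292%) and 4 listed genes (12.5%), Grin1 and Slc17a6 joining Gad2 and Gria2. Shown are Gad2 and Gria2, which hold the full core, and Syn1, which holds it with GGNCAG, and capitals mark these letters. Coordinates are from an exact match to NCBIM37, the build of the files.
Gad2 (chr2:22477676-22477705, + strand): gctgtggtAGCACCCTGGACAGcgcgttcc
Gria2 (chr3:80606906-80606935, + strand): tcgattttAGCACCGCGGACAGcgctttgg
Syn1 (chrX:20498252-20498281, - strand): tcggattcAGCACCGCGGTCAGagccttcg
The center of the core lay at -156, -163 and -222 bases from the start of Gad2, Gria2 and Syn1. A match is a description of letters, and no binding was measured here.

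The question asked of the 44 genes was how they vary between tumors of 1 group. Most of them varied more than most genes did, and many rose and fell together. The standard deviation (SD) of log2 CPM between tumors had a median of 1.07 among the listed genes in the controls and 2.01 in the WDR11OE tumors. Over all 17389 tested genes the medians were 0.21 and 0.20. The control value rested on replicate 1, without which it was 0.39 for the listed genes and 0.16 for all tested genes. The SD exceeded 1 for 26 of 44 listed genes (59.1%) in the controls and 35 (79.5%) in the WDR11OE tumors, against 5.79% and 8.29% of all tested genes. Restricting the comparison to the 14743 genes with 1 CPM or more on average gave 4.25% and 7.01%. The SD was larger among the 4 WDR11OE tumors than among the 3 controls for 40 of 44 genes (90.9%; 47.3% of all tested genes). The exceptions were Stx1a, Grin2a, Rbfox3 and Calb1.

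**Figure D1:**
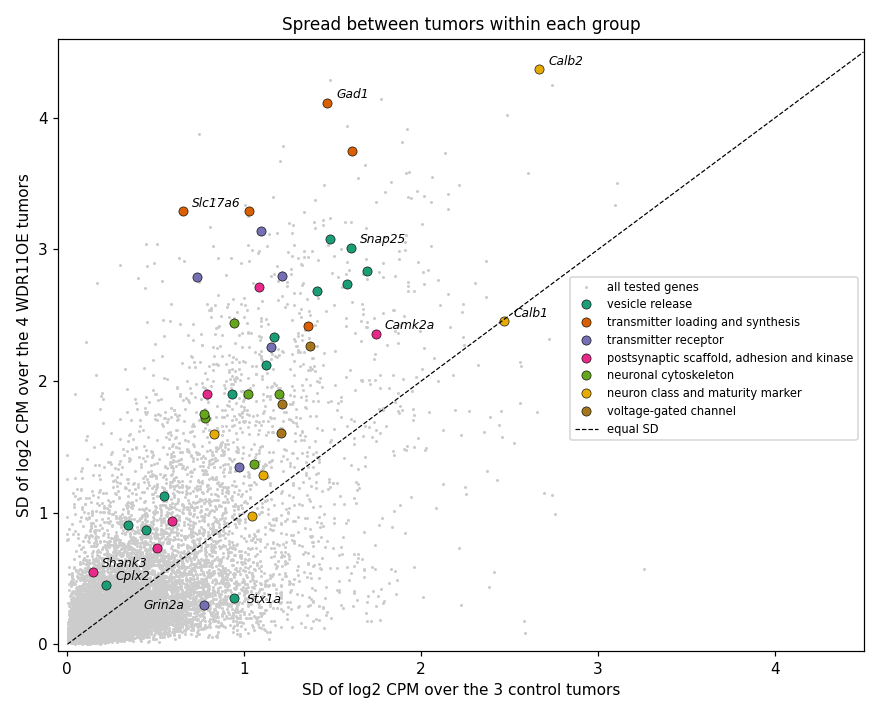
Standard deviation of log2 CPM between tumors for each tested gene, over the 3 control tumors (horizontal axis) and over the 4 WDR11OE tumors (vertical axis). Each grey point is a tested gene, each colored point a listed gene by role, and the dashed line marks equal SDs. All but 4 listed genes lie above the line, and most lie far from the medians of all tested genes, 0.21 and 0.20.

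The same tumors stood at the ends of each group for most listed genes, with exceptions by gene. Control replicate 1 was the highest control for 36 of 44 genes (81.8%; 36% of all tested genes) and control replicate 3 the lowest for 38 (86.4%; 33.4% of all tested genes). WDR11OE replicate 4 was the highest of its group for 43 of 44 genes (97.7%; 37.4% of all tested genes), with Calb1 the exception. WDR11OE replicate 1 was the lowest for 36 (81.8%; 23.7% of all tested genes) and replicate 2 for the other 8. Replicates 3 and 4 both lay above replicates 1 and 2 for every listed gene but Grin2a. Replicates 1 and 2 are also the pair that shares a number in the sample titles, so whatever that number marks cannot be told apart from this split. The median deviation from the group mean was 1.0, -0.12 and -0.85 (log2) in control replicates 1 to 3 and -2.05, -1.09, 0.83 and 2.48 in WDR11OE replicates 1 to 4. Total counts were 35463784, 41397427 and 33417175 in control replicates 1 to 3. In WDR11OE replicates 1 to 4 they were 42252257, 85371523, 32116095 and 87141305. The part of depth in the order of the tumors was not tested.

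**Figure D2:**
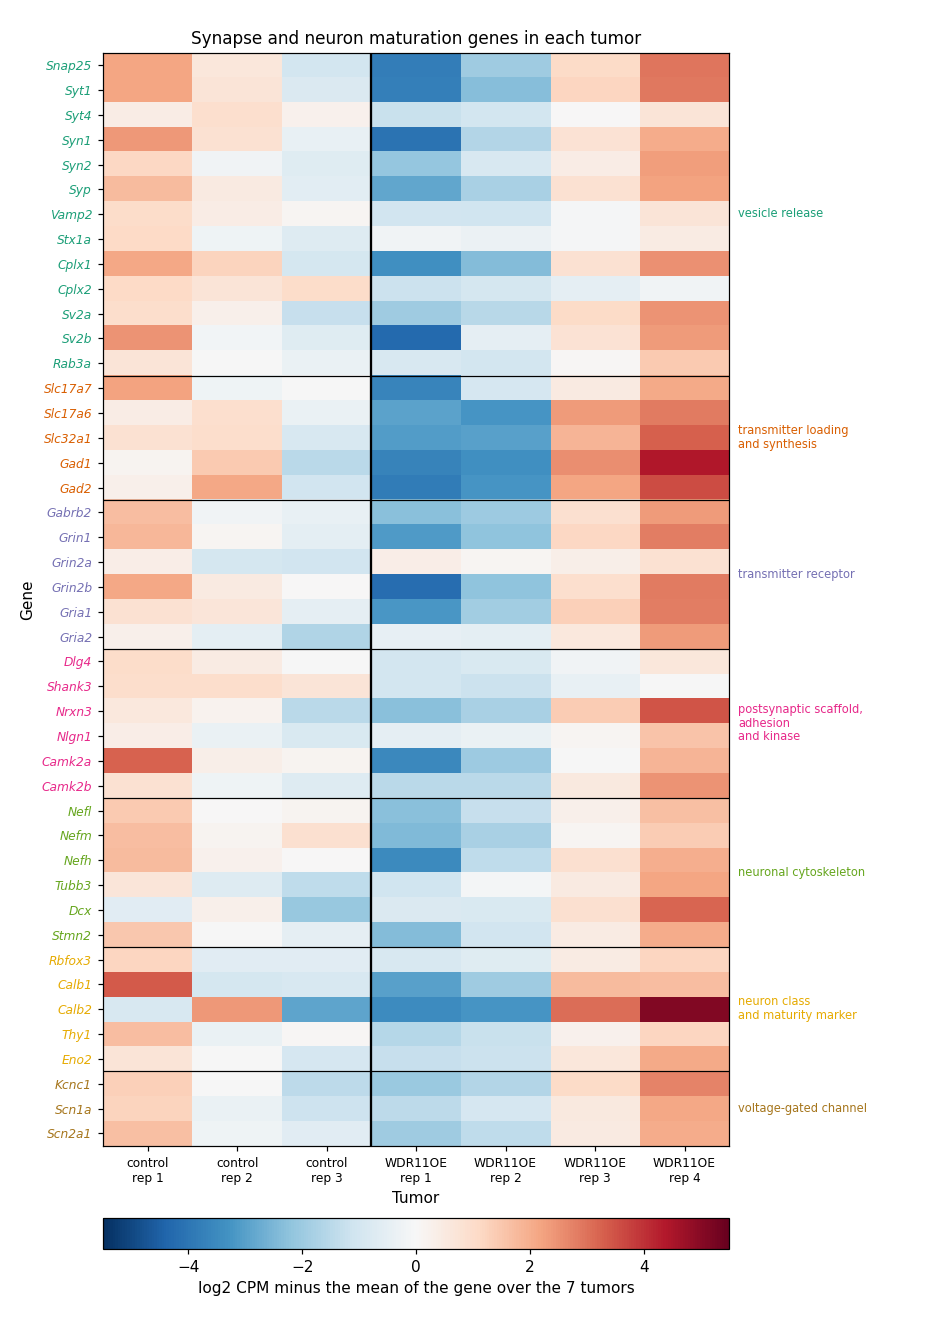
Log2 CPM of the 44 tested listed genes (lines, by role) in the 7 tumors (columns), as the difference from each gene's mean over all 7 tumors (red higher, blue lower). WDR11OE replicates 1 and 2 are blue for nearly every gene and replicate 4 is red for most, with Cplx2 and Shank3 the pair in which all 3 controls stand above all 4 WDR11OE tumors.

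The size of the spread was large in plain terms. From the lowest to the highest WDR11OE tumor, the level rose by a median of 19.4-fold over the 40 genes with more than 3 reads in the lowest tumor, ranging from 1.63-fold for Grin2a to 285-fold for Gad1, and 27 of the 40 differed by 10-fold or more. Among the controls the same ratio was 1.19-fold to 51.2-fold for the 44 genes, with a median of 4.18-fold and 10-fold or more for 2 of them. The 95% exact counting interval of the ratio lay above 1 for all 44 genes in both groups. The highest and lowest tumors were picked by the same counts, so this outcome was nearly fixed in advance. The share over all tested genes was not computed. These intervals cover counting error only.

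Genes of vesicle release (13 of 13 tested) ranged from very uneven to less uneven between tumors. The most even of them across WDR11OE tumors, Stx1a, was still at percentile 71.7 of the SDs of all tested genes there. Snap25, the SNARE protein of the presynaptic membrane, was named after its values were seen. It stood at 83.9, 28.6 and 9.04 CPM in control replicates 1 to 3 and at 1.28, 4.77, 38.5 and 141 CPM in WDR11OE replicates 1 to 4. The WDR11OE tumors thus reached below the lowest and above the highest control, and the highest WDR11OE tumor had 110-fold the level of the lowest (95% counting interval 84.3 to 147). Sv2b, a glycoprotein of the vesicle membrane, was at 32.7, 5.17 and 3.65 CPM in the controls and 0.261, 4.18, 10.1 and 29.9 CPM in the WDR11OE tumors. It had the largest control SD of the vesicle genes (1.69, log2).

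Vamp2, the SNARE protein of the vesicle, kept a narrower range than its partner Snap25. It was at 44.5, 29.5 and 24.3 CPM in the controls and 10.7, 10.5, 21.5 and 36.5 CPM in the WDR11OE tumors. WDR11OE replicates 1, 2 and 3 lay below every control, and replicate 4 lay above 2 of the 3. Stx1a, the third SNARE, was at 13.3, 5.25 and 3.71 CPM against 5.35, 4.90, 5.85 and 8.53 CPM, so it was among the steadiest listed genes across WDR11OE tumors (SD 0.35). Syt4, a synaptotagmin, was at 22.4, 31.9 and 20.2 CPM against 7.15, 8.32, 17.4 and 27.5 CPM. None of Vamp2, Stx1a and Syt4 passed the test between groups (adjusted p = 0.28, 0.688 and 0.288 by edgeR).

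Cplx2 stood apart from the other vesicle genes. It encodes complexin 2, a small protein that clamps the SNARE complex until calcium arrives, on chromosome 13 (chr13:54472713-54485278, + strand, NCBIM37). Its level was 103, 77.0 and 96.1 CPM in the controls (92.0 ± 13.5, SD, n = 3) and 21.1, 24.1, 33.6 and 42.1 CPM in the WDR11OE tumors (30.2 ± 9.54, SD, n = 4). The groups did not overlap, and the difference was -1.60 on the log2 scale (SE 0.24, adjusted p = 0.00293 by the quasi-likelihood test of edgeR, after Benjamini and Hochberg). By comparison, the groups did not overlap for 42.7% of all tested genes and 33.9% were called in either direction. Its paralog Cplx1 overlapped, at 22, 11.8 and 2.57 CPM against 0.450, 0.936, 9.12 and 28.5 CPM. Per kilobase of exon, Cplx2 had the highest mean level of the 46 genes, 11.5 RPKM over the 7 tumors.

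Genes that make and load transmitter (5 of 5 tested) had the widest spread across WDR11OE tumors, with a median SD of 3.29 (log2). Gad1 makes GABA from glutamate. It was at 11.1, 27.1 and 3.52 CPM in the controls and 0.734, 0.936, 59.2 and 209 CPM in the WDR11OE tumors. That is, WDR11OE replicates 1 and 2 lay below all controls and replicates 3 and 4 above them. Its sister enzyme Gad2 was at 4.78, 17.5 and 1.87 CPM against 0.237, 0.387, 17.7 and 47.5 CPM. Slc32a1, which fills vesicles with GABA, was at 2.31, 2.5 and 0.674 CPM against 0.118, 0.125, 4.71 and 12.8 CPM. For these 3 GABA genes control replicate 2 was the highest control. WDR11OE replicates 3 and 4 lay above every control, except that Gad2 was nearly equal in WDR11OE replicate 3 and control replicate 2.

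The glutamate transporters of vesicles did not share 1 pattern in the controls. Slc17a7 (VGLUT1) was at 45.7, 8.27 and 9.62 CPM in the controls and 0.758, 5.15, 14.0 and 41.4 CPM in the WDR11OE tumors, with control replicate 1 on top. Slc17a6 (VGLUT2) was low throughout, at 0.611, 0.882 and 0.337 CPM against 0.0237, 0.0125, 2.40 and 3.47 CPM. Those values in WDR11OE replicates 1 and 2 are a single read each, and the ratio of replicate 4 to replicate 2 was 278 with a counting interval of 49.6 to 11027. The groups overlapped for all 5 genes, and no gene of this role passed the test.

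Receptor subunits (6 of 7 tested) were led by Gria2, the AMPA receptor subunit that keeps calcium out. It was at 40.2, 22.7 and 10.5 CPM in the controls and 23.8, 22.4, 49.9 and 166 CPM in the WDR11OE tumors. The groups overlapped, with replicate 4 above the other 6 tumors. Grin2a, an NMDA receptor subunit that becomes common as synapses mature, was the most even gene across WDR11OE tumors. Its level was 25.3, 10.3 and 9.68 CPM in the controls and 25.5, 21.8, 25.1 and 35.7 CPM in the WDR11OE tumors, a difference of 0.84 (log2; SE 0.37, adjusted p = 0.122 by edgeR). Without control replicate 1, the 1 control within the range of the WDR11OE tumors, Grin2a passed the test as higher. Grin2b, the subunit of young synapses, ranged from 0.332 CPM in WDR11OE replicate 1 to 47.9 CPM in replicate 4. Across WDR11OE tumors its SD was 3.14, against 0.30 for Grin2a.

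Scaffold, adhesion and kinase genes (6 of 6 tested) included the other gene called between groups. Shank3 builds the postsynaptic density and lies on chromosome 15 (chr15:89330054-89390692, + strand, NCBIM37). It stood at 28.3, 28.5 and 23.9 CPM in the controls (26.9 ± 2.59, SD, n = 3) and 7.20, 6.36, 11.1 and 14.5 CPM in the WDR11OE tumors (9.80 ± 3.76, SD, n = 4). The groups did not overlap, the difference was -1.46 (log2; SE 0.29, adjusted p = 0.00785 by edgeR), and the control SD of 0.14 was the smallest of the listed genes. Dlg4 (PSD-95), the scaffold to which NMDA receptors attach, was at 53.1, 36.7 and 26.2 CPM against 13.2, 14.7, 23.1 and 40.5 CPM. All but WDR11OE replicate 4 lay below the lowest control, and the test was not passed (adjusted p = 0.217 by edgeR). Camk2a, the calcium-dependent kinase of learning and memory, was at 172, 22.3 and 20.3 CPM against 1.52, 4.44, 17.6 and 66.8 CPM, and its groups overlapped.

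Cytoskeletal genes (6 of 6 tested) had WDR11OE replicate 4 highest of its group throughout, while control replicate 3 was the lowest control for 4 of the 6. Tubb3, the tubulin of neurons, was at 15.1, 5.72 and 3.56 CPM in the controls and 4.38, 8.70, 13.2 and 42.6 CPM in the WDR11OE tumors. Nefl, the neurofilament light chain, was at 19.7, 7.46 and 8.03 CPM against 1.47, 3.03, 8.87 and 22.8 CPM. Both groups overlapped for each. Among WDR11OE tumors the SD of the 6 genes ran from 1.37 to 2.44.

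The calcium-binding class markers Calb2 and Calb1 were both very uneven, each in its own way. Calb2 (calretinin) was at 0.611, 6.27 and 0.123 CPM in the controls and 0.0710, 0.0873, 10.01 and 41.2 CPM in the WDR11OE tumors. Its SDs of 2.67 and 4.37 were the largest of the listed genes in either group. Calb1 (calbindin), which marks other neurons including Purkinje cells, was at 6.98, 0.310 and 0.337 CPM against 0.0474, 0.137, 2.25 and 2.18 CPM, so it was high in control replicate 1 where Calb2 was low. Eno2, the enolase of neurons, was at 39.0, 23.3 and 12.4 CPM against 9.73, 10.4, 36.8 and 99.1 CPM. Thy1, a surface protein of mature neurons, was at 20.9, 4.86 and 6.62 CPM against 2.13, 2.67, 7.46 and 14.6 CPM. The sodium channel genes Scn2a1 and Scn1a shared 1 order of the tumors within each group. Scn2a1 was at 35.2, 9.39 and 7.29 CPM against 2.89, 4.23, 15.8 and 46.6 CPM. Scn1a was at 17.2, 5.67 and 3.31 CPM against 2.65, 3.83, 10.8 and 31.8 CPM.

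**Figure D3:**
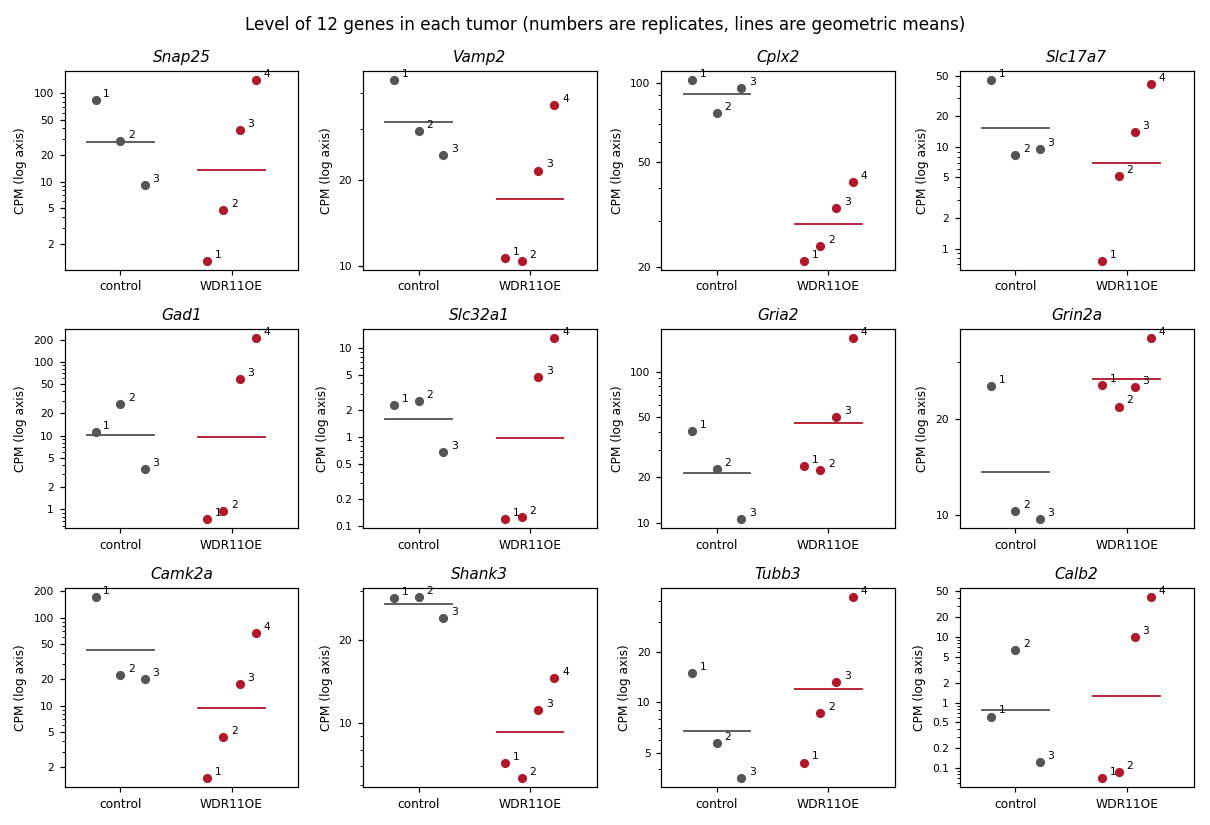
Level of 12 listed genes in each tumor in CPM (log axis), with each point a tumor, its number the replicate, and each line the geometric mean of a group. Only Cplx2 and Shank3 have every WDR11OE tumor below every control; for Snap25 and Gad1 the 4 WDR11OE tumors span from below to above the controls.

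Although the listed genes moved together, their proportions differed from tumor to tumor. The following pairs were chosen after their values were seen, and each is a ratio of read counts within a tumor, not per length, to be compared between tumors only. The ratio of Gad1 to Slc17a7, of GABA to glutamate synapse genes, was 0.242, 3.28 and 0.366 in control replicates 1 to 3 and 0.969, 0.182, 4.24 and 5.05 in WDR11OE replicates 1 to 4. It was thus higher in control replicate 2 and in WDR11OE replicates 3 and 4 than in the other 4 tumors. With Gad2 in place of Gad1 the ratio was 0.105, 2.12 and 0.194 in the controls and 0.313, 0.0751, 1.27 and 1.15 in the WDR11OE tumors, with the same 3 tumors on top. The ratio of Calb2 to Calb1 split the controls more widely, at 0.0876, 20.2 and 0.364, and was 1.5, 0.636, 4.45 and 18.9 in the WDR11OE tumors, although replicate 1 rests on 3 and 2 reads.

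The ratio of Camk2a to its partner subunit Camk2b separated the groups: it was 3.59, 0.985 and 1.23 in the controls and 0.160, 0.465, 0.451 and 0.447 in the WDR11OE tumors. No other pair computed did so. The share of all gene pairs that separate the groups was not computed, and the groups did not overlap for 42.7% of single tested genes. WDR11OE replicates 2, 3 and 4 differed by less than their counting intervals although the levels of both genes differed by 10-fold or more between replicates 2 and 4. Cplx2 to Cplx1 ran against the general level, at 4.67, 6.51 and 37.3 in the controls and 47.0, 25.8, 3.68 and 1.48 in the WDR11OE tumors. It was highest in the tumors where the listed genes were lowest.

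**Figure D4:**
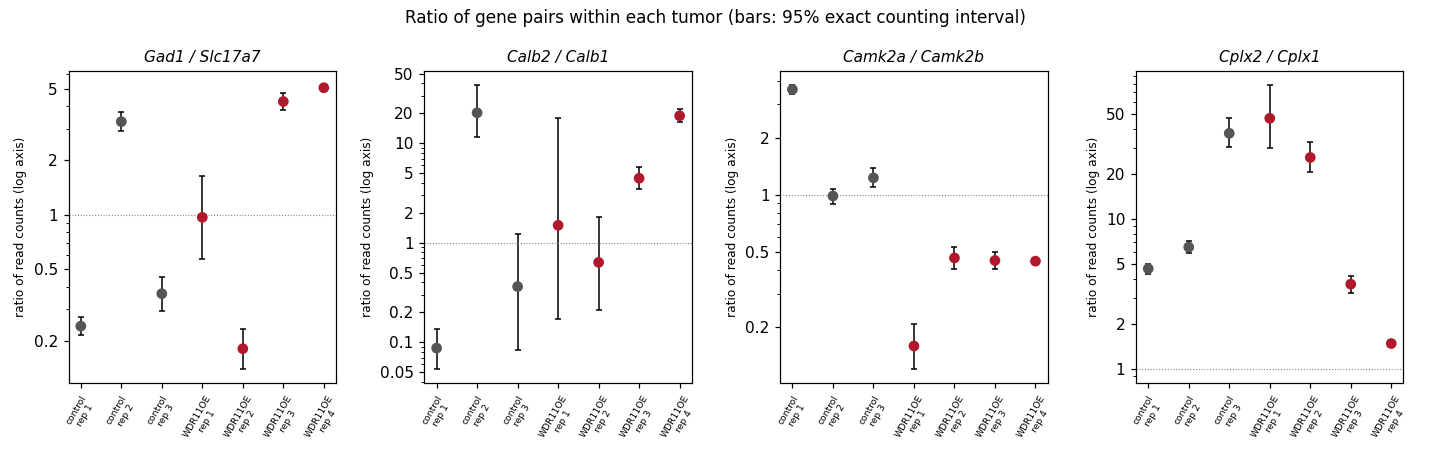
Ratio of read counts of 4 gene pairs within each tumor (log axis; bars are 95% exact counting intervals; the dotted line is a ratio of 1, with counts not adjusted for length). Gad1 to Slc17a7 is highest in control replicate 2 and WDR11OE replicates 3 and 4, and Camk2a to Camk2b is lower in every WDR11OE tumor than in every control.

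Between WDR11OE replicates 3 and 4 the median difference was 1.48 (log2) with an SD of 0.54 over the 44 genes and a range from -0.04 for Calb1 to 2.33 for Dcx, and 43 were higher in replicate 4. The difference between the highest tumors of the groups had a wider spread. From control replicate 1 to WDR11OE replicate 4 the median was 0.69, the SD 1.53 and the range from -1.66 for Calb1 to 5.98 for Calb2, with 32 of 44 genes higher.

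Against this spread, few listed genes differed between WDR11OE and control tumors. At an adjusted p under 0.05, 5894 of 17389 tested genes were called (33.9%), 2744 lower (15.8%) and 3150 higher (18.1%). Of the 44 listed genes 2 were lower, Cplx2 and Shank3 (4.55%), and 0 were higher. Without WDR11OE replicate 4 the number lower was 5, with Dlg4, Syt4 and Vamp2 added, and without control replicate 1 the number higher was 1, Grin2a. In these fits 34.5% and 28.4% of all tested genes were called in either direction. At an unadjusted p under 0.05, edgeR gave 2 lower and 0 higher (43.8% of all tested genes in either direction), limma-voom 2 and 1 (43.6%), and DESeq2 3 and 1 (43.7%). Both called genes also fell by 2-fold or more. Of all tested genes, 3.45% were called lower and 2.36% higher with a change of 2-fold or more and an average log2 CPM above 0. The groups did not overlap for the same 2 of 44 genes, against 42.7% of all tested genes. For these 2 the exact two-sided permutation p was 0.0286, the smallest that 35 splits of the tumors can give. Only groups that do not overlap can reach it, so it adds little to that count.

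The sign of the edgeR difference was mixed, with 17 genes lower and 27 higher and a median log2 difference of 0.12 (0.08 over all tested genes). This difference is fitted to counts, so the highest tumor of a group weighs most. On the mean of log2 CPM, the scale of the SDs, some signs reversed. Snap25, Gad2 and Gria1 were higher by edgeR, and lower in the WDR11OE tumors by that mean. The share of genes that reversed was not computed. The standard error was the larger contrast, with a median of 1.11 for the listed genes (range 0.24 to 2.11) and 0.17 for all tested genes. Snap25, for example, differed by 0.20 by edgeR with an SE of 1.40. A gene of this kind that was not called is not shown to be equal in the groups.

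**Figure D5:**
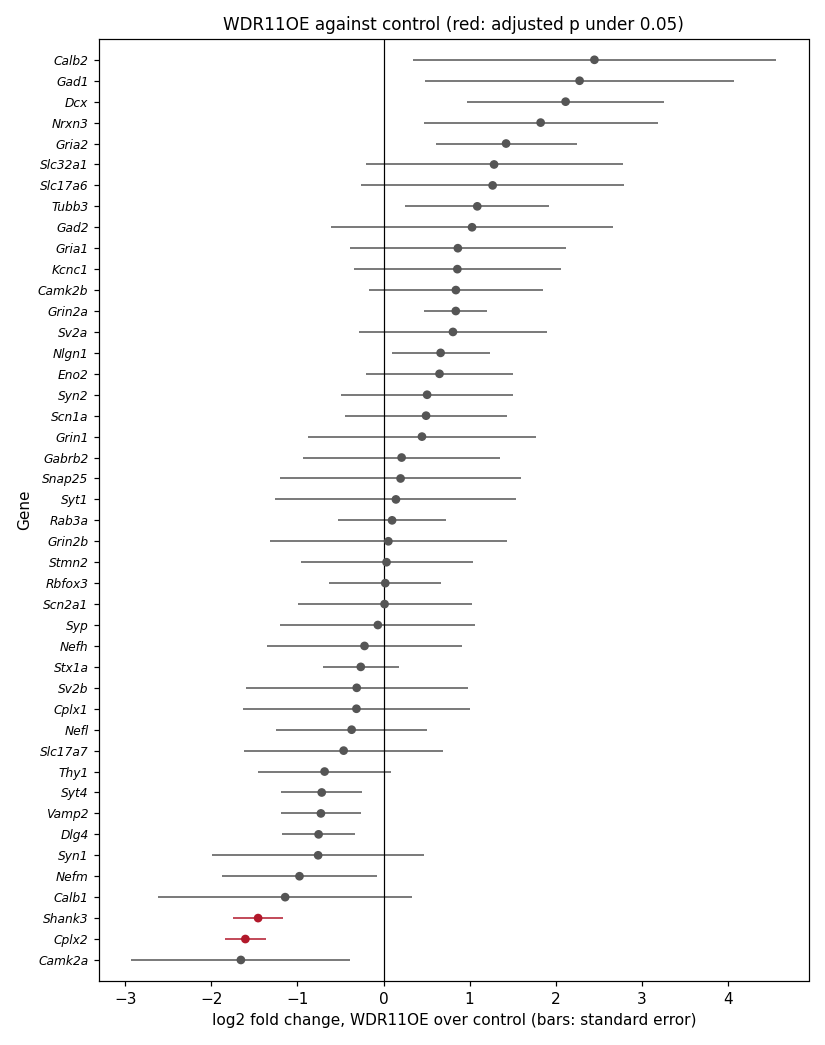
Difference of each tested listed gene between WDR11OE and control tumors (log2, edgeR), with bars of 1 standard error on each side, ordered by size. Cplx2 at -1.60 and Shank3 at -1.46 are the 2 genes called at an adjusted p under 0.05 (red), and the bars of the others are mostly longer.

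Other neuronal genes, from lists of the same processes, kept much the same order of tumors. Of 98 further genes tested (33 presynaptic, 34 postsynaptic or receptor, 31 of maturation and channels), 6 were lower and 1 was higher. That is 7.14% called, against 33.9% of all tested genes (15.8% lower). WDR11OE replicate 4 was the highest of its group for 95 of the 98 (37.4% of all tested genes), and control replicate 1 for 79 (36% of all tested genes). Among those lower were Sncb (beta-synuclein), Rph3a (a Rab3 effector), Nlgn2 (the neuroligin of inhibitory synapses), the sodium channel subunit gene Scn2b and the adhesion gene Ncam1. Sncb was at 45.6, 32.9 and 36.5 CPM in the controls and 12.9, 14.3, 19.0 and 17.9 CPM in the WDR11OE tumors. Elavl2, an RNA-binding protein of early neurons, was the 1 gene higher, at 5.61, 5.77 and 4.84 CPM against 16.2, 16, 15.2 and 20.5 CPM (difference 1.65, SE 0.16, adjusted p = 0.00104 by edgeR).

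Of 13 regulators of neuronal genes tested, 3 were lower and 0 higher, so that 23.1% were called against 33.9% of all tested genes (15.8% lower). Rest, the repressor that binds RE1, was at 109, 103 and 114 CPM in the controls and 82.2, 84.4, 89.7 and 66.8 CPM in the WDR11OE tumors (difference -0.43, SE 0.11, adjusted p = 0.0183 by edgeR). Its corepressor Rcor1 fell by 0.54 (log2; SE 0.09, adjusted p = 0.00394 by edgeR) and the activator Mef2d by 1.15 (SE 0.22, adjusted p = 0.0074 by edgeR). The groups did not overlap for these 3 of the 13 genes, against 42.7% of all tested genes.

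Markers of other cells moved with the listed genes in part. The summed level of the listed genes was 1283, 621 and 413 CPM in the controls and 187, 227, 772 and 2255 CPM in the WDR11OE tumors. The 8 astrocyte markers summed to 657, 612 and 424 CPM against 248, 268, 495 and 871 CPM, with WDR11OE replicate 4 highest of its group for 7 of 8 (37.4% of all tested genes) and none of the 8 at 0. Slc1a2, the glutamate transporter of astrocytes, was at 334, 195 and 84.7 CPM against 13, 22.4, 85.4 and 226 CPM, and so kept the order of the listed genes in both groups. Gfap, the intermediate filament of astrocytes, was at 87.1, 170 and 106 CPM against 22.5, 23.6, 122 and 252 CPM, so it kept the order of the listed genes in the WDR11OE tumors and not in the controls. Gja1, a gap junction gene of astrocytes, ranged only from 112 to 146 CPM over the 7 tumors. Of the 8 markers only S100b was called between groups, as higher (difference 0.94, SE 0.15, adjusted p = 0.00359 by edgeR), where 33.9% of all tested genes were called.

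Neurons of the host cortex and of the granule lineage were followed by their own markers. The cortical projection neuron markers (10 listed, 8 tested) summed to 168, 84.8 and 78.3 CPM against 58.9, 68.4, 75.3 and 88.8 CPM. Control replicate 1 was the highest control for 8 of the 8 tested (36% of all tested genes). WDR11OE replicate 4 was the highest of its group for 5 of the 8 (37.4% of all tested genes). The granule lineage markers (11 listed, 8 tested) summed to 99.9, 90.3 and 78.4 CPM against 59.1, 68.6, 114 and 262 CPM. For these, WDR11OE replicate 4 was the highest of its group for 8 of the 8 tested, and control replicate 1 the highest control for 3. By their sums, both lists were highest in control replicate 1 among the controls and in replicate 4 among the WDR11OE tumors. Between these 2 tumors, the cortical sum was higher in the control and the granule sum in the WDR11OE tumor.

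Other lists kept the order of the listed genes in part or not at all. By their sums, microglia markers rose from WDR11OE replicate 1 to replicate 4, as the listed genes did. Interneuron and Purkinje markers fell from control replicate 1 to replicate 3, also as the listed genes did. The 6 interneuron markers summed to 14.2, 5.89 and 5.82 CPM against 8.86, 6.49, 14.5 and 14.0 CPM, and the Purkinje markers (7 listed, 6 tested) to 244, 148 and 137 CPM against 172, 188, 177 and 192 CPM. Oligodendrocyte markers summed to 326, 378 and 150 CPM against 200, 130, 151 and 359 CPM, and microglia markers to 148, 191 and 121 CPM against 112, 127, 162 and 233 CPM. Endothelial markers ranged from 86.4 to 142 CPM over the 7 tumors. Blood genes were highest in control replicate 1, at 1123 CPM against 23.6 to 378 CPM elsewhere, and skeletal muscle genes were at 1.04 to 1.92 CPM in the controls and 35.8 to 112 CPM in the WDR11OE tumors. The part of these cells in the spread of the listed genes was not tested.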

How the data were processed

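Tumor RNA was extracted with Trizol. The labels name the TruSeq RNA kit v2 and the study's methods name stranded total RNA sequencing, and the strand setting of the counting is not given in the sources used here. The authors mapped reads to NCBIM37 (mm9) with their StrongArm pipeline, counted them per gene with HTSeq on GENCODE and deposited raw counts for the 7 tumors. The submitters' processing notes name CASAVA 1.7, STAR, BWA and HTSeq.

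Replicate numbers follow the order of the labels and pair nothing. Genes were tested with edgeR 4.0.16 (R 4.3.3; TMM, default filter, quasi-likelihood test, Benjamini-Hochberg adjustment over all 17389 tested genes, call at 0.05) on condition alone. The study's own choice, limma-voom (limma 3.58.1), and DESeq2 1.42.0 were alternatives. The SD between tumors and the order of tumors were taken on log2 CPM with a prior count of 2. RPKM used the summed exon length of the NCBIM37 annotation. The 97.1% of genes found in it carry GC content and length. Exact two-sided permutation tests took all 35 splits.

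Genes were named by rule: the 2 highest by mean RPKM in each role, those called with 2-fold change, and, in each group, those with the 5 largest and 3 smallest SDs at 1 CPM or more on average. Snap25, Cplx1, Grin2b, Gfap and the ratios were picked once values had been seen. Of the other lists, Sncb, Nlgn2, Scn2b and Rcor1 were named because they were called, and some genes of high level there are not shown. The listed genes, the roles, the other lists and the tests were all chosen with earlier results of these data known. The scripts were tested on simulated data. Genes not found in the table were not analysed here, and 1 gene of the other lists is not reported here.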

Additional observations from a re-analysis of the deposited data

Results flagged for a closer look

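In the WDR11OE group the highest tumor was far from the others on the CPM scale for 2 of the 44 listed genes. Dcx, a microtubule protein of migrating young neurons, stood at 62 CPM in replicate 4, with the next tumor at 12.3 CPM, and this gap was 0.853 of the whole range of the group. Nlgn1, a neuroligin of excitatory synapses, stood at 12.9 CPM in replicate 4, with the next at 4.75 CPM and a gap of 0.835 of the range. Each passed Dixon's 95% critical value for 4 samples. Chance flags about 1 in 20 independent groups. The 44 genes share the same 4 tumors and many move together, so 2 of 44 cannot be set against that share. The test was run on CPM and not on the log2 CPM used for the SDs, and the share flagged over all tested genes was not computed. The 3 control tumors are too few for this test.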

How the results depend on the processing

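Cplx2 and Shank3 were called lower under each of the 17 alternatives, with log2 differences of -1.81 to -1.48 (adjusted p from 6.46e-11 to 0.0122) and -1.73 to -1.06 (1.04e-06 to 0.0309). These alternatives were limma-voom, DESeq2, 3 other scalings, no filter, a 1 CPM filter, removal of a GC trend, WDR11OE replicates 1 and 2 summed, each tumor left out, and, added after seeing the data, control replicate 1 and WDR11OE replicate 4 left out together. Leaving out 1 tumor gave 2 to 5 listed genes lower (5 without WDR11OE replicate 4, adding Dlg4, Syt4 and Vamp2) and 0 to 1 higher (1 without control replicate 1, Grin2a). Without both tumors, 3 were lower (Cplx2, Shank3, Dlg4) and 1 higher (Grin2a). Of all tested genes, 20.9% to 34.5% were called in either direction with 1 tumor left out, and 31.9% without both.

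Of the 98 other neuronal genes, 4 to 10 were lower with 1 tumor left out (10 without WDR11OE replicate 4) and 3 with the GC trend removed. In either direction, 20.9% to 34.5% and 27.8% of all tested genes were called in these settings. The number higher was 2 with DESeq2, upper-quartile scaling, the 1 CPM filter and without both tumors, and 1 to 2 with 1 tumor left out. The median SD of the controls rested on replicate 1: it was 0.39 without it, 0.39 without both tumors, and 0.39 to 1.29 over all single omissions, while that of the WDR11OE tumors stayed at 1.52 to 2.30. The cause was not tested. Counts of genes with a given tumor highest or lowest moved by at most 2. No paired analysis was possible because the labels give no replicate numbers. Depth limits Slc17a6, Nefh, Calb1 and Calb2, which had 3 reads or fewer in the lowest WDR11OE tumor.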
